A study of Mus musculus with 39 samples.

Results

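Macrophage and monocyte transcripts were followed through every library of a tumour study in mice. They are 33 genes that macrophages and monocytes express, chosen by symbol: Lyz2, C1qa, C1qb, C1qc, Csf1r, Adgre1, Cd68, Cd14, Apoe, Ms4a7, Ms4a6c, Tyrobp, Fcer1g, Fcgr1, Fcgr3, Fcgr2b, Mrc1, Cd163, Aif1, Ctss, Cst3, Trem2, Spi1, Il1b, Lgmn, Itgam, Mpeg1, Cybb, Ctsb, Lst1, Pld4, Tlr2 and Sirpa. All 33 were found among the 28023 gene symbols of each expression table. The question was whether they vary together between libraries and keep one ratio to each other, as transcripts brought in by carried-over cells would.

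C57BL/6 mice of wild-type genotype carried subcutaneous MCA-205 tumours, a fibrosarcoma line of the same strain. All had received a faecal microbiota transplant 2 weeks before the tumour cells, made from stool of human volunteers. The stool was exposed for 6 days to CZA together with DAV132, a colon-targeted adsorbent, or to CZA alone, an agent that the labels give only by this abbreviation. From a tumour size of 25 to 35 mm2 the mice received 4 intraperitoneal injections, 3 days apart, of anti-PD-1 antibody (clone RMP1-14, 250 µg), against a receptor that restrains T cells, or of isotype antibody (clone 2A3), and tumours were taken 2 days after the last one. CD8+ T cells sorted from tumours of one experiment make up the CD8 set of 20 libraries, and the other experiment gave 19 libraries labelled bulk tumour, called bulk-labelled here. The groups were CZA+DAV132 anti-PD-1, CZA+DAV132 isotype, CZA anti-PD-1 and CZA isotype, with 5 libraries each, except for 4 for CZA+DAV132 isotype in the bulk-labelled set. Every mouse thus carried stool that had met CZA, and no group without it was analysed here. The age and sex of the mice are not given in the labels, which also do not tie a library to its own mouse, so p-values measure the spread between libraries, part of which may be technical. Stool differs between the arms and is not replicated by the libraries. The CD8 libraries are numbered in blocks by group, from 1 to 5 for CZA isotype up to 16 to 20 for CZA+DAV132 anti-PD-1. Whatever these numbers stand for cannot be told apart from the group.

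Macrophages and monocytes are phagocytes that arise from the myeloid lineage and are common in MCA-205 and other mouse tumours. The receptor Csf1r and the transcription factor PU.1, encoded by Spi1, drive their development, and PU.1 binds purine-rich sites in the promoters of many of their genes. Tissue macrophages secrete complement C1q, a protein assembled from the products of C1qa, C1qb and C1qc, and take up antibody-coated particles through Fc receptors. T cells make little or none of most of these transcripts, so that a sorted T cell library that contains them can hold RNA of other cells. Some members are less restricted: Fcer1g and Tyrobp also serve as adaptors in natural killer cells, and Cst3, Ctsb, Lgmn and Ctss also occur in dendritic cells or in many other cells.

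The promoters of C1qb, C1qc and Lyz2 are shown because these genes followed C1qa most closely of the members across the CD8 set. The first pair lie in the C1q cluster of chromosome 4 (C1qa, GRCm38 chr4:136895917-136898803, minus strand; C1qc, chr4:136889804-136893065; C1qb, chr4:136880129-136886187), and Lyz2 lies on chromosome 10. Each sequence is from RefSeq on GRCm38.p6 and runs 5′ to 3′ on the minus strand from 250 bases before to 50 bases after the start in RefSeq. That start differs from the start in the gene coordinates, which are from GENCODE. Capitals mark each match to GAGGAA, the core of the PU.1 site, on either strand.
C1qb, chr4:136886151-136886450: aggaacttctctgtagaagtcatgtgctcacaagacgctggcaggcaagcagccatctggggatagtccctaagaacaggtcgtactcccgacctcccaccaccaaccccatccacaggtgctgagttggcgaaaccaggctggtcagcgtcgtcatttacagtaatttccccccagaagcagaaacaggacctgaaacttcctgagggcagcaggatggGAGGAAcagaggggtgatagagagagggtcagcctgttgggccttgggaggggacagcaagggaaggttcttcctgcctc
C1qc, chr4:136892865-136893164: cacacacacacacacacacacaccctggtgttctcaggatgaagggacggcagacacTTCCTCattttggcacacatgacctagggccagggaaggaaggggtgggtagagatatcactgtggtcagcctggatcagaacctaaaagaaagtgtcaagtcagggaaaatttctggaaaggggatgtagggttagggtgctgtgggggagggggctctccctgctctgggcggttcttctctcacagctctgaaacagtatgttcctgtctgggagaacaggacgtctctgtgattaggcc
Lyz2, chr10:117282223-117282522: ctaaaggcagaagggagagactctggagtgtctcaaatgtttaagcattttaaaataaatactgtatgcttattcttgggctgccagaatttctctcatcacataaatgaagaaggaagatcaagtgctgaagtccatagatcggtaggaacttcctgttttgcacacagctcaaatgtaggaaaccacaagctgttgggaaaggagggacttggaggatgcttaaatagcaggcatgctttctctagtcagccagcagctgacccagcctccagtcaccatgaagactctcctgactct
The promoters of C1qb and C1qc each hold 1 match to the core, that of Lyz2 holds 0 matches to either form, and the match of C1qc is also part of the only match to the longer form GAGGAAGT, which overlaps the core. Of the 33 members, 24 matched the promoter table, with 29 promoters. GAGGAA occurred in 17 of these 29, a share of 58.6%, and in 28.3% of all 32851 promoters of the same length. GAGGAAGT occurred in 3 of the 29 and in 3.20% of all promoters. A match is a description of letters and not a measured site.

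Levels are given as TPM, a transcript's share of its library scaled for length, a unit that keeps no read counts, and the depth of the libraries is therefore unknown. Each set has its own table, normalized separately, which limits any level put beside one of the other set. The actin gene Actb alone took 36590 to 170865 TPM in the bulk-labelled libraries, against 1314 to 6782 TPM in the CD8 set. TPM are shares of a total, so the levels below are not read as a difference between the sets. T cell transcripts were abundant in every library. Cd8a, a chain of the CD8 co-receptor, ranged from 86.7 to 402.5 TPM in the CD8 set and from 141 to 423 TPM in the bulk-labelled libraries. Cd3e, which encodes a chain of the CD3 signalling complex, ranged from 182 to 1330 TPM and from 117 to 678 TPM in the same order. The 14 T cell markers summed to 4001 to 17453 TPM in the CD8 set and to 4683 to 15318 TPM in the bulk-labelled libraries, where the 13 fibroblast and sarcoma markers summed to 6.61 to 2184 TPM. T cell markers this far above the tumour's own markers in most libraries go against a whole-tumour label, so the set is named by its label only. A share of the TPM fell on 13 entries made of repeats, which took 53.98% and 18.8% in libraries 19 and 16 of the CD8 set, both CZA+DAV132 anti-PD-1, and 50.8% and 13.4% in T026 (CZA+DAV132 anti-PD-1) and T985 (CZA isotype) of the other set. Counts of members called, pair correlations, sums and ratios in the CD8 set are given with and without libraries 16 and 19, an alternative that for the pair correlations, sums and ratios was chosen after seeing the data. In library 19 the remaining genes were low together, Cd8a at 93.5 TPM included.

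The 33 members summed to 368 to 5225 TPM in the CD8 set, with a median of 1456 TPM, and to 439 to 1853 TPM in the bulk-labelled libraries, with a median of 913 TPM. C1qa stood at 22.8 TPM in the median CD8 library, from 2.65 to 121.5, and at 3.38 TPM in the median bulk-labelled library, from 0 to 36.9. C1qb had medians of 40.4 and 22.02 TPM and C1qc of 24.3 and 11.2 TPM, in the same order. The sorted cells thus held C1q transcripts in every library. Lyz2, the lysozyme of macrophages and other myeloid cells, was higher, with medians of 136 TPM in the CD8 set and 79.5 TPM in the bulk-labelled libraries. Its near-identical paralog Lyz1, with which reads can be shared, stayed at or under 0.948 TPM in the CD8 set and 0.334 TPM in the other. Apoe, a lipid carrier that macrophages secrete, had medians of 64.7 and 25.9 TPM in that order.

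Receptors that define the lineage were low. Csf1r, the receptor for the macrophage growth factor CSF1, stood at 1.62 TPM in the median CD8 library, from 0.434 to 5.53, and Adgre1, which encodes F4/80, at 0.760 TPM, from 0 to 8.91. In the bulk-labelled libraries Csf1r had a median of 2.47 TPM, and Adgre1 was listed at 0 in 8 of 19. Cd14, a co-receptor for bacterial lipopolysaccharide, had medians of 6.31 TPM in the CD8 set and 0.537 TPM in the bulk-labelled libraries. Mrc1, the mannose receptor, had medians of 0.734 and 0.363 TPM in that order. Trem2, a lipid-sensing receptor, had medians of 3.95 and 0.534 TPM, and Sirpa, the receptor for CD47, of 1.47 and 1.67 TPM. Tlr2, a receptor for bacterial lipoproteins, had medians of 0.683 and 0.376 TPM, and Itgam, the integrin chain CD11b, of 4.01 and 8.95 TPM. The membrane proteins Ms4a7 and Ms4a6c had medians of 14.5 and 6.72 TPM in the CD8 set. The scavenger receptor Cd163 did not reach 1 TPM in any library, with highest values of 0.181 TPM in the CD8 set and 0.559 TPM in the other, and was the 1 member of 33 that failed the filter of at least 1 TPM in at least 4 libraries. The other 32 members were tested in each set.

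The Fc receptor genes parted from their adaptors in level. Medians in the CD8 set were 1.51 TPM for Fcgr1, 13.0 TPM for Fcgr3 and 10.8 TPM for Fcgr2b, the last an inhibitory receptor. Fcer1g, the signalling chain shared by activating Fc receptors, had a median of 544 TPM, from 130 to 1561, and Tyrobp, the adaptor DAP12, one of 101 TPM, from 20.0 to 409.5. Fcer1g was the member with the highest median in the CD8 set, and its median in the bulk-labelled libraries was 134 TPM. The 8 natural killer cell markers were Ncr1, Klrb1c, Klra8, Klra4, Klre1, Klri2, Eomes and Gzma. They summed to 163.5 to 952 TPM in the CD8 set and to 156 to 695 TPM in the other. Eomes and Gzma are not restricted to natural killer cells and can come from CD8 T cells, so the sum is no measure of natural killer cells. The part of these markers in the level of the adaptors was not tested. The protease and lysosome genes were also high: medians in the CD8 set were 227 TPM for the protease inhibitor Cst3, 149.5 TPM for Ctss, 36.0 TPM for Ctsb, 28.8 TPM for Lgmn and 17.1 TPM for the lysosomal glycoprotein Cd68. Mpeg1, a pore-forming protein of phagosomes, had a median of 1.28 TPM and Pld4, an endolysosomal nuclease, one of 3.06 TPM. Aif1, an actin-binding protein of macrophages, had a median of 40.2 TPM and Lst1 one of 34.5 TPM. Spi1 had a median of 4.48 TPM, Cybb, the catalytic subunit of the phagocyte oxidase, of 1.45 TPM, and Il1b, the cytokine interleukin-1 beta, of 11.0 TPM.

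**Figure D1:**
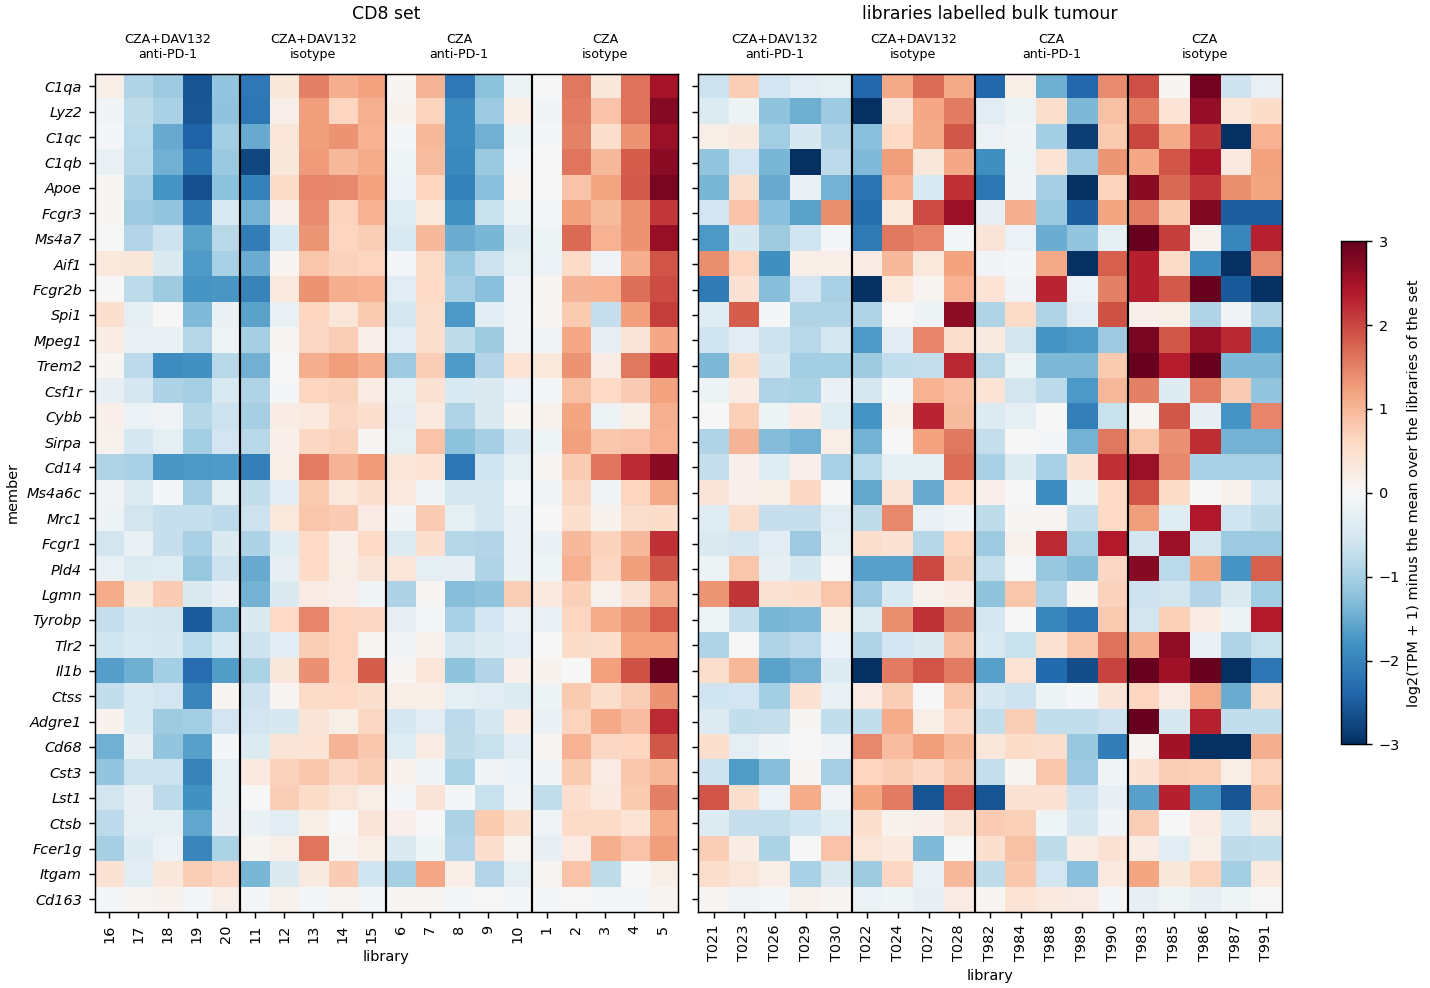
Level of each member in each library as log2(TPM + 1) minus the mean over the libraries of its set, in colour, with the scale ending at 3 above and below the mean; columns are libraries by group, rows are members by their correlation with C1qa in the CD8 set. In the CD8 set whole columns are high or low together, with libraries 19, 11 and 8 low and library 5 high, while columns of the bulk-labelled libraries are mixed.

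In the sorted CD8 T cells most members were high in the same libraries and low in the same libraries. C1qa spanned 45.8-fold, from 2.65 TPM in library 19 to 121.5 TPM in library 5, and library 8 of the CZA anti-PD-1 group and library 11 of the CZA+DAV132 isotype group were both at 3.95 TPM. After the group means were subtracted on the log2(TPM + 1) scale, 25 of the 31 other members tested correlated with C1qa with r above 0 and an adjusted p under 0.05, where 1.46% of the other 12941 genes tested did (permutation test within groups, 100000 permutations, two-sided, Benjamini-Hochberg adjustment over all genes, n = 20). The median r of the 31 was 0.872, and that of all genes tested was 0.161. Fewer macrophages in a sort and less of these RNAs per cell cannot be told apart in libraries of pooled cells.

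Lyz2 had the highest correlation with C1qa of all genes tested, with r = 0.985 and Spearman's rho = 0.967, both with p = 1e-05, the smallest these permutations can give (adjusted p = 0.0037 and 0.00498). C1qc followed at r = 0.981 and rho = 0.971, and C1qb, at r = 0.978 and rho = 0.974, ranked 4th. Apoe, at r = 0.957 and rho = 0.935, and Fcgr3, which encodes a low-affinity activating Fc receptor, at r = 0.9502 and rho = 0.889, ranked 6th and 8th. These 4 had the same permutation p and adjusted p as Lyz2 in both measures. Without libraries 5 and 19, the farthest from the median of C1qa, r was 0.983 for Lyz2, 0.979 for C1qc, 0.979 for C1qb, 0.948 for Apoe and 0.937 for Fcgr3. Along with these, Ms4a7 (r = 0.947), Aif1 (r = 0.945), Fcgr2b (r = 0.924), Spi1 (r = 0.921), Csf1r (r = 0.888), Cd14 (r = 0.873) and Mrc1 (r = 0.856) were among those that passed, as was Lgmn (r = 0.803, rho = 0.830, adjusted permutation p = 0.0249 for r).

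At the other end, 6 members did not pass: Itgam (r = 0.426, rho = 0.349, adjusted p = 0.594 and 1), Fcer1g (r = 0.452, rho = 0.377, adjusted p = 0.539 and 1), Ctsb (r = 0.513, rho = 0.338, adjusted p = 0.405 and 1), Lst1 (r = 0.644), Cst3 (r = 0.645) and Cd68 (r = 0.658). Fcer1g was 130 TPM in library 19 but 546 TPM in library 11, where C1qa was almost as low. Without libraries 5 and 19, r was 0.528 for Itgam, 0.277 for Fcer1g and 0.335 for Ctsb. By Spearman's rho 22 of the 31 passed. The count was 15 without library 11, in which C1qa was low for its group, 20 without libraries 16 and 19, 19 without libraries 5 and 19, and 7 without libraries 11, 16 and 19, where the median r of the members was 0.802 and that of all genes 0.0556. That last alternative was chosen after seeing the data, and with 17 libraries 0.0785% of all genes passed.

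**Figure D2:**
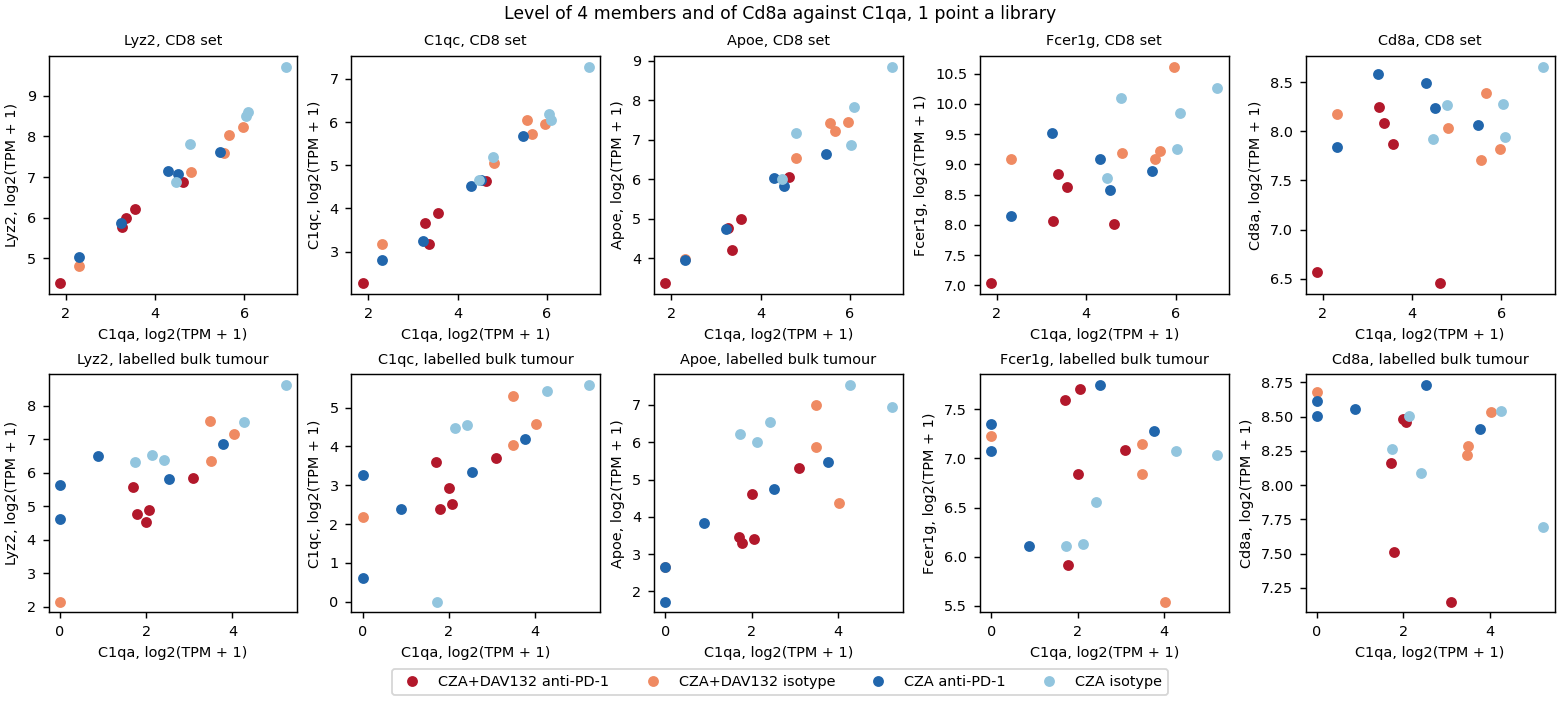
Level of Lyz2, C1qc, Apoe, Fcer1g and Cd8a against C1qa, both as log2(TPM + 1), each point a library coloured by group, CD8 set above and bulk-labelled libraries below. In the CD8 set Lyz2, C1qc and Apoe follow C1qa along a line (r = 0.985, 0.981 and 0.957), Fcer1g follows it less (r = 0.452) and Cd8a shows no such line, while 3 libraries labelled bulk tumour are listed at 0 for C1qa.

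Of the members above 0 in every CD8 library, the 5 closest to C1qa had the ratios to it that spread least. They were picked by their r in the same libraries, so the ratios are a description and not a separate test. Lyz2 was between 4.23 and 8.44 times C1qa in TPM, with a median of 6.14, a spread of 2.00-fold where Lyz2 itself spanned 41.9-fold. C1qb was 1.36 to 3.11 times C1qa, C1qc was 0.874 to 2.03 times, Apoe was 1.78 to 5.38 times and Fcgr3 was 0.379 to 1.06 times. The ratio of Fcer1g to C1qa by contrast ran from 9.44 to 138, and that of Cst3 from 3.71 to 69.2. Regressed on C1qa, both on the log2 scale with group means subtracted, slopes were 1.04 for Trem2, 0.988 for Cd14, 0.9498 for Sirpa, 0.926 for C1qb, 0.882 for Apoe, 0.857 for Lyz2 and 0.852 for C1qc. They were 0.432 for Tyrobp, 0.323 for Ctss, 0.318 for Cd68, 0.292 for Lst1, 0.238 for Cst3, 0.223 for Fcer1g and 0.211 for Ctsb. Slopes were also low for Itgam at 0.322, Ms4a6c at 0.374 and Lgmn at 0.438. Other members lay between, among them Ms4a7 at 0.797, Fcgr3 at 0.727, Fcgr1 at 0.666, Aif1 at 0.630, Pld4 at 0.571 and Csf1r at 0.546. The ratio to C1qa spread 5.03-fold for Aif1 and 5.93-fold for Csf1r, though both passed in the correlation with C1qa. A slope near 1 is not by itself a fixed ratio, since the ratio to C1qa spread 11.9-fold for Trem2, 6.68-fold for Cd14 and 6.98-fold for Sirpa. Without libraries 16 and 19 the ratios of Lyz2, C1qc, Apoe, Fcer1g and Cst3 had the same lowest and highest values, that of C1qb reached 3.05, and slopes were 0.866 for Lyz2, 0.988 for C1qb, 0.857 for C1qc, 0.885 for Apoe and 0.190 for Fcer1g. The T cell genes had slopes of 0.0278 for Cd8a and 0.0151 for Cd3e.

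Among all 496 pairs of the 32 members tested, the median r in the CD8 set was 0.754 and 493 pairs were above 0, beside a median of 0.336 over all 83741211 pairs of genes tested. Without libraries 16 and 19 the median r was 0.765 over member pairs and 0.0880 over all gene pairs. All pairs share the total of each library, and library 19 held the lowest value of 18 of the 33 members. With median-ratio scaling the median r with C1qa over all genes was -0.0318 and that of the members 0.874, and 25 members passed as before.

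Other lists of markers showed what else moved with C1qa in the CD8 set. Of 6 MHC class II genes tested, 5 passed, with a median r of 0.912 over the 6, and of 39 further macrophage genes 14 passed, with a median of 0.618. Some of these 39, such as Ly6c2, Plac8 and Ccr2, are not restricted to macrophages and can come from T cells. MHC class II molecules present antigen on macrophages, dendritic cells and B cells, and the list summed to 76.7 to 1748 TPM. Among genes that are not members, chosen here for their values, Tgfbi (r = 0.978), Ly86 (r = 0.959), H2-Aa (r = 0.953) and Pf4 (r = 0.936) ranked within the first 12 of all genes. Of 8 fibroblast and sarcoma markers 2 passed, with a median r of 0.680. None of the 14 T cell markers passed, with a median r of 0.0330, nor any of 10 dendritic cell (median r 0.255), 5 neutrophil (0.5025), 4 B cell (0.184), 6 natural killer cell (0.266), 4 erythroid (0.359), 1 endothelial (0.580), 1 mast cell (0.0112) and 1 keratinocyte (0.409) marker tested. The 1 platelet marker tested that passed was Pf4, which macrophages also express. The 14 dendritic cell genes summed to 12.1 to 57.0 TPM, and the 15 neutrophil genes to 9.77 to 88.3 TPM with 2 of them at 0 in all libraries. The part of any of these cell types in the members' levels was not tested.

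In the bulk-labelled libraries 1 member passed. Of the 31 other members tested 1 passed against C1qa, Il1b at r = 0.858 and rho = 0.834 (adjusted p = 0.0444 and 0.159), where 0.0826% of the other 13325 genes did (same permutation test, n = 19). The median r of the 31 was 0.521, and that of all genes was -0.00926. Lyz2 (r = 0.826, rho = 0.786), Fcgr3 (r = 0.823, rho = 0.779), Sirpa (r = 0.815, rho = 0.787) and Apoe (r = 0.7845, rho = 0.719) followed, with adjusted permutation p for r of 0.0954, 0.0533, 0.0600 and 0.0804. The lowest were Cd68 (r = -0.321, rho = -0.299), Lst1 (r = -0.127, rho = -0.183) and Ctsb (r = 0.113, rho = 0.0421), with adjusted permutation p for r of 0.860, 0.965 and 0.973, and the signs of Lst1 and Ctsb changed in some alternatives. Without T983 and T986, the farthest from the median of C1qa, r was 0.812 for Il1b, which then no longer passed, and 0.799 for Lyz2, 0.751 for Fcgr3, 0.760 for Sirpa, 0.829 for Apoe, -0.123 for Cd68, 0.0579 for Lst1 and -0.0931 for Ctsb. Over the 496 member pairs the median r was 0.3645, with 441 above 0, beside 0.0550 over all gene pairs, and without T026 and T985 these medians were 0.377 and 0.0350.

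C1qa itself was listed at 0 in T982, T989 and T022, in which C1qb was 4.27, 7.82 and 6.50 TPM and Lyz2 was 48.4, 23.7 and 3.45 TPM. C1qc was listed at 0 in T987, where C1qa was 2.32 TPM and C1qb 22.02 TPM. Genes of one complex were thus listed apart, and a value of 0 can be a failed estimate in a table without counts. Of the 32 members tested 19 were listed at 0 in at least 1 bulk-labelled library and 1, Adgre1, in the CD8 set. Cd68 was listed at 0 in T986, the library with the highest C1qa. Of all genes tested in this set Serpinh1 (r = 0.861), the member Il1b (r = 0.858), Crabp1 (r = 0.856) and Cald1 (r = 0.855) had the highest r with C1qa. Col3a1, another collagen gene, ranked 7th (r = 0.843). These genes were chosen here for their values. Of the 10 fibroblast and sarcoma markers tested 2 passed against C1qa, with a median r of 0.703, beside 0.521 over the members. Col1a1, a collagen and one of that list, was 431 TPM in T986 and between 4.73 and 44.7 TPM in the other libraries. None of 7 MHC class II (median r 0.475), 14 T cell (-0.297), 9 dendritic cell (0.228), 7 neutrophil (0.149), 4 B cell (-0.102), 6 natural killer cell (-0.0843), 5 erythroid (0.0649), 2 endothelial (0.0947), 2 platelet (-0.0175) and 1 mast cell (0.1455) markers passed, and 1 of 41 further macrophage genes did (0.206). Their part in these levels was not tested. Whether the relation to C1qa differs between the sets was not tested.

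**Figure D3:**
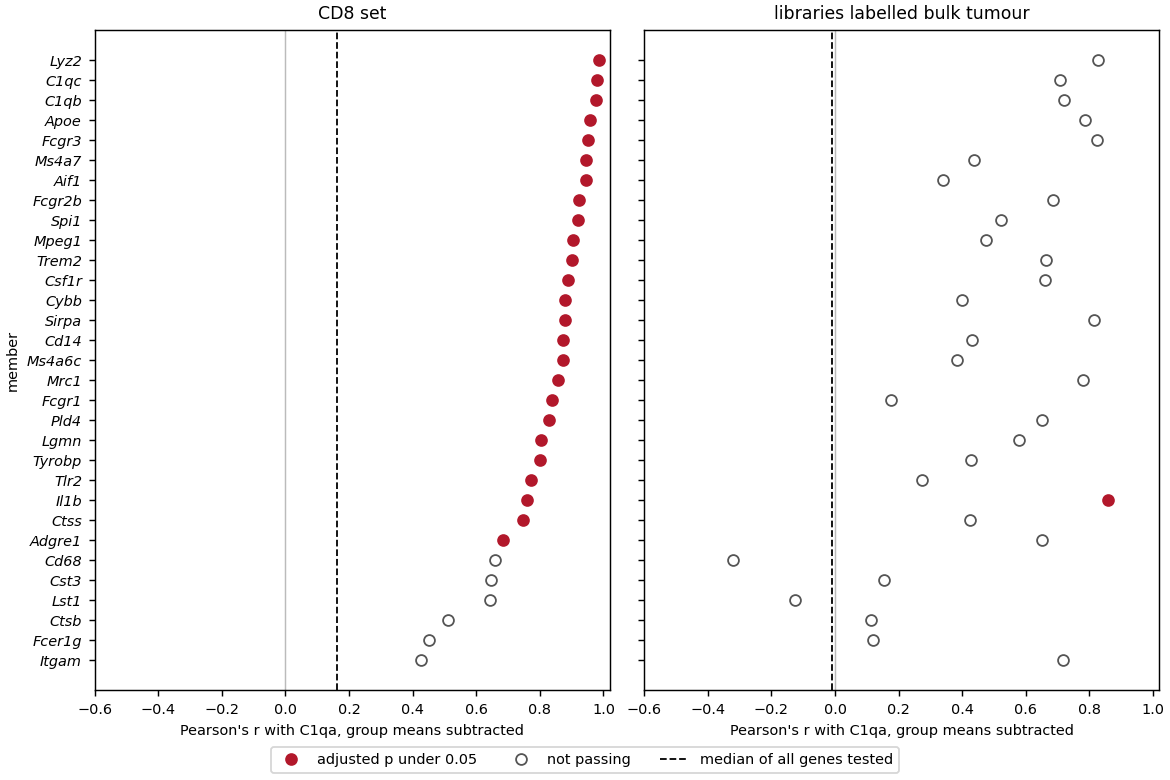
Pearson's r of each member with C1qa on log2(TPM + 1) with group means subtracted, in the CD8 set and in the bulk-labelled libraries, filled where the adjusted permutation p is under 0.05, with the median of all genes tested as a dashed line. Of the 31 members 25 are filled in the CD8 set and 1, Il1b, in the bulk-labelled libraries, where Cd68 and Lst1 lie below 0.

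Between the groups of the CD8 set, 11 members were lower under anti-PD-1 than under isotype in the CZA+DAV132 arm. Of the 32 members tested 11 were lower and 0 higher, where 19.4% of all 12942 genes tested were lower (limma on log2(TPM + 1), Benjamini-Hochberg adjusted p under 0.05). The median log2 change was -0.92 over the members and -0.34 over all genes, which stood at -0.00 after median-ratio scaling, where the members' median was -0.60. The 33 members summed to 894 ± 300 TPM in CZA+DAV132 anti-PD-1 libraries and 2249 ± 891 TPM in CZA+DAV132 isotype libraries (SD, n = 5 each). Less restricted members weigh heavily in this sum, with Fcer1g at 1561 of the 3626 TPM in isotype library 13. C1qa, C1qb and C1qc together summed to 14.7 to 82.6 TPM and 17.4 to 223.5 TPM in the same order of groups, which overlap. Every anti-PD-1 library was below every isotype library for 5 members, Cst3, Fcer1g, Il1b, Lst1 and Tyrobp, 5 of 32 tested beside 12.1% of all genes. Without libraries 16 and 19 these 5 were again without overlap, beside 12.8% of all genes, and the CZA+DAV132 anti-PD-1 libraries that remained summed to 1027 ± 83.6 TPM (SD, n = 3).

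Cst3, which encodes the protease inhibitor cystatin C, had 98.2, 144, 142, 55.2 and 185 TPM in CZA+DAV132 anti-PD-1 libraries, against 274, 363, 393, 343 and 376 TPM in CZA+DAV132 isotype libraries. The groups did not overlap, and the log2 change was -1.58 ± 0.298 (SE, adjusted p = 0.00589 by limma). Tyrobp had 73.0, 84.9, 79.9, 20.0 and 47.9 TPM in CZA+DAV132 anti-PD-1 libraries, against 87.6, 178, 327, 184.5 and 183 TPM in CZA+DAV132 isotype libraries. Its log2 change was -1.68 ± 0.402 (adjusted p = 0.00899 by limma), with the lowest isotype library, number 11, just above the highest anti-PD-1 one. Both were called in 29 of 29 alternatives. Il1b had 2.64, 3.12, 4.59, 1.34 and 2.56 TPM in CZA+DAV132 anti-PD-1 libraries, against 4.92, 13.3, 28.3, 16.9 and 39.4 TPM in CZA+DAV132 isotype libraries. The log2 change of -2.27 ± 0.530 (adjusted p = 0.00862 by limma) was the largest among the members.

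The other members called were Cd68 (-1.35, adjusted p = 0.0123 by limma), Fcer1g (-1.32, adjusted p = 0.0171), Lst1 (-1.11, adjusted p = 0.0249), Mrc1 (-0.88, adjusted p = 0.0264), Cd14 (-1.80, adjusted p = 0.0333), Ctss (-0.96, adjusted p = 0.0427), Apoe (-1.85, adjusted p = 0.0427) and C1qc (-1.66, adjusted p = 0.0462). Fcer1g, Cd68, Lst1 and Cst3 are also 4 of the 6 members that did not pass against C1qa. Of C1qa and the 5 members closest to it, C1qc and Apoe were called. The others did not pass, with log2 changes of -1.52 for C1qa, -1.31 for Lyz2, -1.35 for C1qb and -1.31 for Fcgr3. C1qa had 23.8, 10.8, 9.25, 2.65 and 8.60 TPM in CZA+DAV132 anti-PD-1 libraries, against 3.95, 26.9, 61.4, 45.7 and 49.5 TPM in CZA+DAV132 isotype libraries, and Lyz2 had 118, 72.8, 62.5, 20.0 and 53.4 TPM, against 26.98, 139, 299, 193 and 261 TPM. In both the isotype library 11 lay among or below the anti-PD-1 libraries, and neither passed. Csf1r averaged 0.879 ± 0.403 TPM in CZA+DAV132 anti-PD-1 libraries and 2.33 ± 1.27 TPM in CZA+DAV132 isotype libraries, without passing (SD, n = 5 each). Adgre1 had 1.25, 0.538, 0, 0.0380 and 0.423 TPM in CZA+DAV132 anti-PD-1 libraries, against 0.421, 0.512, 1.76, 1.39 and 2.23 TPM in CZA+DAV132 isotype libraries, and did not pass either.

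Single libraries decide the count of 11, and the share of all genes that were lower moved with it. Without library 11 the count was 19, with C1qa, C1qb and Lyz2 among them, beside 16.5% of all genes. It was 6 without library 12 (14.3% of all genes), 4 without 13 (13.4%), 6 without 14 (16.3%), 6 without 15 (11.9%) and 5 without 19 (12.6%). Without the repeat-rich libraries 16 and 19 it was 2, Cst3 and Tyrobp, which is 6.25% of the 32 members beside 5.20% of all genes. This does not remove the difference in repeat entries between the groups. The CZA+DAV132 anti-PD-1 libraries 17, 18 and 20 held 12.1%, 8.60% and 7.96%, and the CZA+DAV132 isotype libraries 5.15% or less. Median-ratio scaling left 5 (Cd68, Cst3, Fcer1g, Il1b and Tyrobp), which is 15.6% of the members beside 14.2% of all genes. TPM rescaled without the repeat entries left 6, the same with Mrc1, which is 18.8% of the members beside 13.2% of all genes. Without library 13, without 16 and 19 and with median-ratio scaling the members were thus called about as often as all genes, while with all libraries and unscaled TPM it was 34.4% of the members and 19.4% of all genes. Without 11, 16 and 19, chosen after seeing the data, the count was 12 beside 4.17% of all genes, with a median change of -0.03 over all genes.

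Values of other marker lists stand beside this result, where 19.4% of all genes were lower. Of the 39 genes of the further macrophage list 6 were lower and 0 higher, and of 6 MHC class II genes 2 were lower. The 6 were Ccl6, Cebpb, Clec7a, Ctsz, Lair1 and Ly6c2, the last of them not restricted to macrophages. Of the dendritic cell genes 3 of 10 were lower and 1 higher, and of the B cell genes 1 of 4 was lower and 1 higher. Lower were also 2 of 6 natural killer cell, 1 of 5 neutrophil and 1 of 14 T cell genes and the 1 platelet and the 1 keratinocyte gene tested, and none of 8 fibroblast and sarcoma, 4 erythroid, 1 endothelial and 1 mast cell genes passed. The MHC class II list summed to 76.7 to 299 TPM in CZA+DAV132 anti-PD-1 libraries and 165.5 to 802 TPM in CZA+DAV132 isotype libraries, the dendritic cell list to 12.1 to 27.2 and 21.03 to 48.6 TPM, the neutrophil list to 9.77 to 42.6 and 36.2 to 82.2 TPM, and the natural killer cell list to 163.5 to 548 and 384 to 782 TPM. The T cell list summed to 4001 to 13382 TPM and 11581 to 14648 TPM, and the repeat entries to 77192 to 533950 TPM and 15659 to 50420 TPM, in the same order of groups. Their part in the result was not tested.

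**Figure D4:**
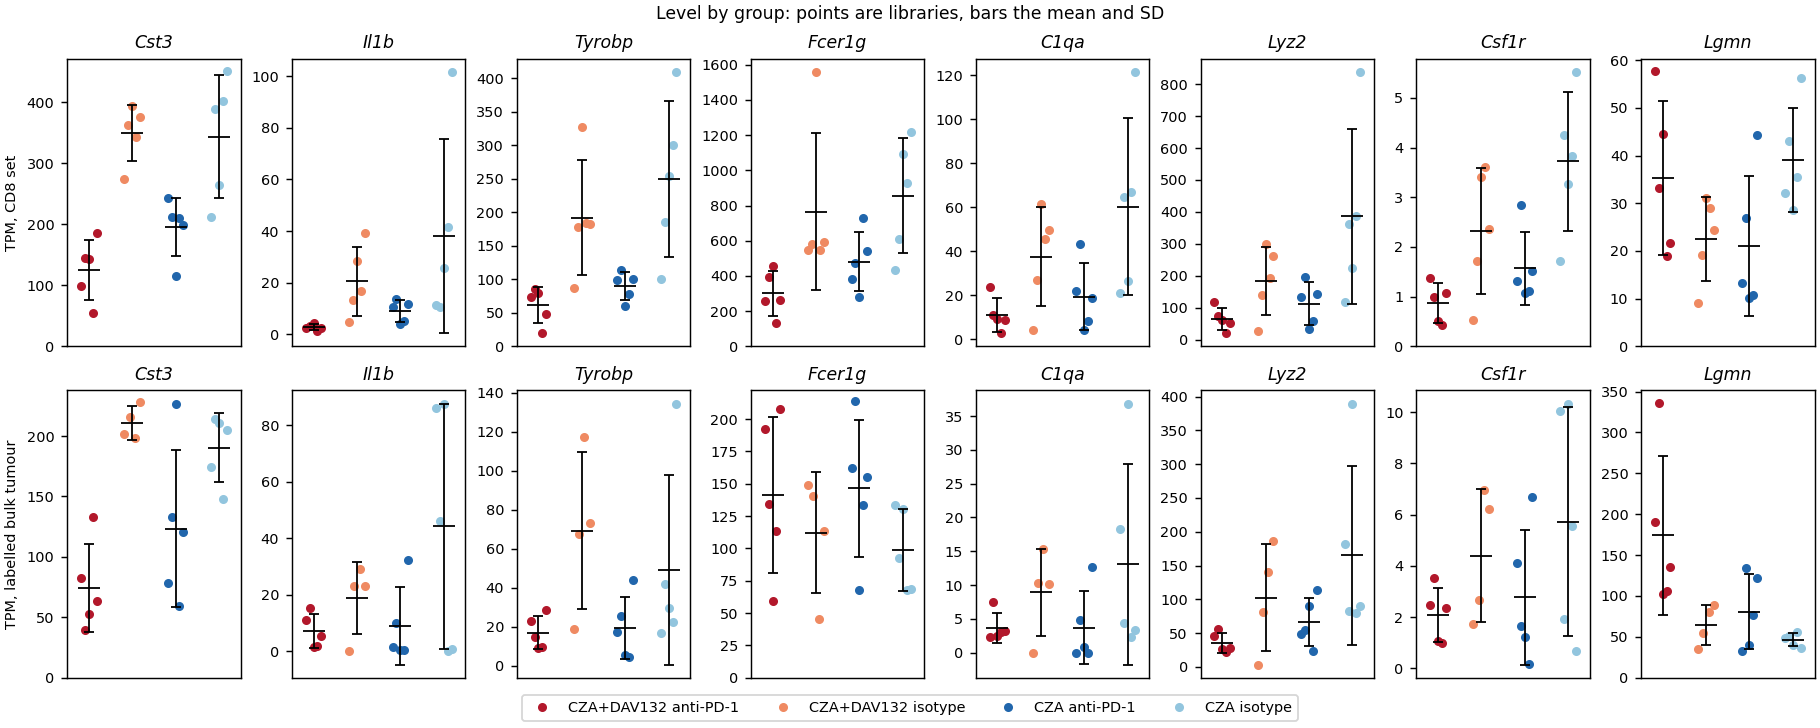
TPM of 8 members by group, CD8 set above and bulk-labelled libraries below, each point a library, with the mean and SD as bars. Cst3 lies lower with CZA+DAV132 anti-PD-1 than with CZA+DAV132 isotype, without overlap, in both sets, while the same groups overlap for C1qa and Lyz2.

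In the CZA arm of the CD8 set no member passed, though all 32 had a log2 change below 0 for anti-PD-1 against isotype. The median was -1.19 over the members and -0.02 over all genes. Of all genes 0.0155% passed after adjustment (limma), and at an unadjusted p under 0.05 it was 27 of the 32 members, beside 5.11% of all genes. The members vary together between libraries, with a median r of 0.754 over their pairs. Counts of members in this set are therefore not counts of separate results. Library 5 of the isotype group held the highest level of 26 of the 33 members, among them C1qa. Adgre1 had 0.457, 0.695, 0.224, 0.451 and 1.46 TPM in CZA anti-PD-1 libraries, against 0.826, 2.36, 3.65, 2.98 and 8.91 TPM in CZA isotype libraries, a log2 change of -1.34 ± 0.356 that did not pass (adjusted p = 0.521 by limma). Fcgr1, the high-affinity receptor for IgG, had a change of -1.30 (adjusted p = 0.579) and Cd68 one of -1.23 (adjusted p = 0.579), likewise not passing. C1qa averaged 19.2 ± 15.3 TPM in CZA anti-PD-1 libraries and 60.2 ± 40.2 TPM in CZA isotype libraries, Lyz2 112 ± 66.8 and 386 ± 275 TPM, and Apoe 51.8 ± 33.3 and 201 ± 155 TPM (SD, n = 5 each). The MHC class II list summed to 126 to 474 TPM in CZA anti-PD-1 libraries and 382 to 1748 TPM in CZA isotype libraries. The dendritic cell list summed to 18.8 to 24.4 TPM in CZA anti-PD-1 libraries and 25.1 to 57.0 TPM in CZA isotype libraries, without overlap. In the same order the platelet list summed to 3.84 to 29.6 and 13.9 to 82.5 TPM, the neutrophil list to 20.6 to 31.5 and 23.6 to 88.3 TPM, the natural killer cell list to 309 to 758 and 447 to 952 TPM, and the fibroblast and sarcoma list to 14.3 to 194 and 16.1 to 531 TPM. The T cell list summed to 11231 to 17453 and 8765 to 15116 TPM. No gene of these lists passed in this arm (limma), and their part was not tested. The anti-PD-1 comparisons of the arms share no library, but the 4 groups of a set give 1 estimate of each gene's spread. Their p-values are therefore not independent.

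The comparisons of the arms use the same groups again, so their values are not independent of those above. For CZA+DAV132 against CZA under anti-PD-1 no member passed (limma), where 0.0386% of all genes did. At an unadjusted p under 0.05 it was 4 members, beside 33.5% of all genes. The smallest p were those of Il1b (-1.32, adjusted p = 0.0984 by limma), Cst3 (-0.71, adjusted p = 0.109) and Ctsb, a lysosomal protease (-0.72, adjusted p = 0.114). Without library 8 Ctsb passed, where 10.7% of all genes then did, and without library 20 Cst3 passed, where 31.0% did. With the filter of a mean of at least 5 TPM 18.1% of all genes passed and 0 of 22 members. C1qa averaged 11.0 ± 7.76 TPM in CZA+DAV132 anti-PD-1 libraries and 19.2 ± 15.3 TPM in CZA anti-PD-1 libraries. Under isotype no member and 0% of all genes passed (limma), and at an unadjusted p under 0.05 it was 6 members beside 2.47% of all genes. Pld4 (-1.05), Adgre1 (-0.92) and Fcgr1 (-0.91) had the smallest p, each with an adjusted p of 1.00 by limma. C1qa averaged 37.5 ± 22.5 TPM in CZA+DAV132 isotype libraries and 60.2 ± 40.2 TPM in CZA isotype libraries (SD, n = 5 each).

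The anti-PD-1 effect of the CZA+DAV132 arm minus that of the CZA arm, the interaction, passed for no member and for 0% of all genes of the CD8 set (limma). At an unadjusted p under 0.05 it was 1 member, beside 15.7% of all genes. That member was Lgmn, which encodes the lysosomal protease legumain, at 1.66 ± 0.556 (SE, adjusted p = 0.290 by limma), followed by Cst3 at -0.78 (adjusted p = 0.353) and Itgam at 0.868 (adjusted p = 0.426). Lgmn had 57.7, 33.2, 44.5, 18.9 and 21.8 TPM in CZA+DAV132 anti-PD-1 libraries, against 9.09, 19.2, 31.1, 29.01 and 24.3 TPM in CZA+DAV132 isotype libraries. In the CZA arm it had 13.3, 26.8, 10.2, 10.7 and 44.3 TPM in CZA anti-PD-1 libraries, against 32.04, 43.0, 28.7, 35.5 and 56.2 TPM in CZA isotype libraries. Its groups overlapped in both arms. Lgmn and Itgam were the 2 of 32 members with a log2 change above 0 in the CZA+DAV132 arm.

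**Figure D5:**
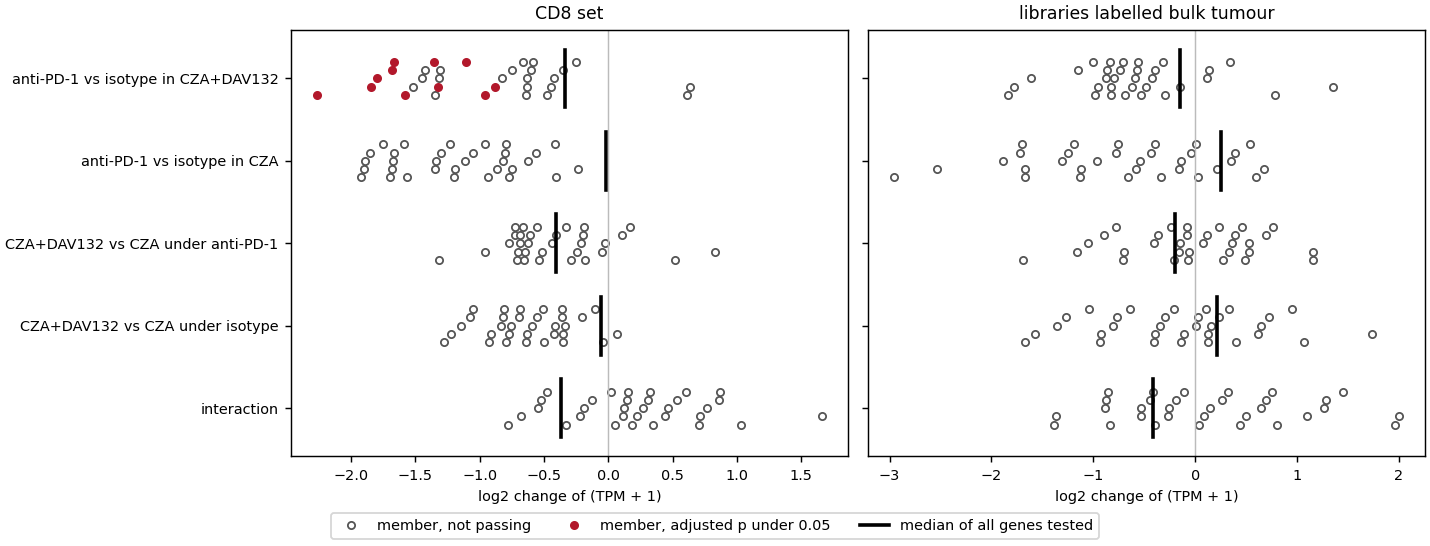
Log2 change of (TPM + 1) of each of the 32 members tested in 5 comparisons, CD8 set and libraries labelled bulk tumour, filled where the adjusted p by limma is under 0.05, with the median of all genes tested as a bar. Of the comparisons shown, the anti-PD-1 comparison in the CZA+DAV132 arm of the CD8 set has filled points, 11 of them, and in the CZA arm of that set all 32 points lie below 0.

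In the bulk-labelled libraries no member passed in any of the 5 comparisons (limma). For anti-PD-1 against isotype in the CZA+DAV132 arm 0.24% of all 13326 genes passed, and at an unadjusted p under 0.05 it was 5 members beside 10.3% of all genes. The median log2 change was -0.66 over the members and -0.15 over all genes. Cst3 had 82.7, 39.4, 52.7, 133 and 63.4 TPM in CZA+DAV132 anti-PD-1 libraries, against 201.5, 216, 198 and 228 TPM in CZA+DAV132 isotype libraries. The groups did not overlap, and the change was -1.61 ± 0.355 (SE, adjusted p = 0.0603 by limma). It passed with array weights, with the filter of a mean of at least 5 TPM, and without T988, T989 or T029 (adjusted p from 0.0151 to 0.0421 in these, where 0.196% to 2.31% of all genes passed). T988 and T989 are CZA anti-PD-1 libraries outside this comparison, and without either the change of Cst3 was the same. Cd68 and Ctsb were also without overlap and lower, beside 4.43% of all genes, and Lgmn without overlap and higher, beside 2.06%.

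Lgmn had 190, 336, 103, 106 and 135 TPM in CZA+DAV132 anti-PD-1 libraries, against 35.0, 54.5, 80.9 and 88.4 TPM in CZA+DAV132 isotype libraries, a log2 change of 1.35 ± 0.434 (adjusted p = 0.187 by limma). Tyrobp averaged 17.0 ± 8.53 TPM (n = 5) in CZA+DAV132 anti-PD-1 libraries and 69.1 ± 40.3 TPM (n = 4) in CZA+DAV132 isotype libraries, a change of -1.84 (adjusted p = 0.264). Lyz2 averaged 35.7 ± 14.6 and 103 ± 78.8 TPM in the same groups, with T022 of the isotype group the lowest of all libraries at 3.45 TPM. The MHC class II list summed to 90.3 to 198 TPM in CZA+DAV132 anti-PD-1 libraries and 112 to 521 TPM in CZA+DAV132 isotype libraries, the neutrophil list to 28.02 to 44.1 and 60.4 to 89.7 TPM, and their part was not tested.

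In the CZA arm of the bulk-labelled libraries 0.285% of all genes passed for anti-PD-1 against isotype, and at an unadjusted p under 0.05 it was 7 members beside 13.1% of all genes. Apoe had 5.25, 25.9, 13.1, 2.31 and 43.7 TPM in CZA anti-PD-1 libraries, against 184, 92.4, 121, 73.6 and 62.8 TPM in CZA isotype libraries. It was the 1 member without overlap in this comparison, as were 0.308% of all genes in the same direction, and its change was -2.96 ± 0.731 (SE, adjusted p = 0.0773 by limma). Mpeg1 had a change of -2.54 (adjusted p = 0.137) and C1qb one of -1.67 (adjusted p = 0.273). Without T991 Mpeg1 passed, where 0.597% of all genes did, and Apoe did so without T022, where 0.393% did. T022 is a CZA+DAV132 isotype library outside this comparison, and without it the change of Apoe was the same. C1qb averaged 19.7 ± 16.6 TPM in CZA anti-PD-1 libraries and 55.5 ± 31.0 TPM in CZA isotype libraries (SD, n = 5 each), and the members' median change was -0.62 beside 0.255 over all genes. The T cell list had sums of 9822 to 15318 TPM in CZA anti-PD-1 libraries and 7729 to 9070 TPM in CZA isotype libraries, without overlap. None of its 14 genes passed (limma), and their median change was 0.448, beside the 0.255 over all genes. In the same order the fibroblast and sarcoma list summed to 38.0 to 306 and 36.1 to 2184 TPM, the MHC class II list to 118 to 370 and 181 to 1011 TPM, the dendritic cell list to 28.9 to 49.2 and 26.03 to 82.3 TPM, and the neutrophil list to 30.9 to 50.55 and 14.5 to 48.4 TPM. Their part in these values was not tested.

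Between the arms of the bulk-labelled libraries the members were spread on both sides of 0. There the library names run from T021 to T030 for CZA+DAV132 and from T982 to T991 for CZA, and whatever these names stand for cannot be told apart from the arm. Under anti-PD-1 0% of all genes passed, and at an unadjusted p under 0.05 it was 3 members beside 7.58% of all genes. These were Lgmn (1.16, adjusted p = 0.453 by limma), Ctsb (-0.71, adjusted p = 0.591) and Cst3 (-0.70, adjusted p = 0.655). Under isotype 0.113% of all genes passed, and at an unadjusted p under 0.05 it was 1 member beside 10.9%. The smallest p were those of Apoe (-1.68, adjusted p = 0.446 by limma), Mpeg1 (-1.58, adjusted p = 0.471) and Cd68 (1.73, adjusted p = 0.510). For the interaction 0.045% of all genes passed, and at an unadjusted p under 0.05 it was 0 members beside 10.3%, with Apoe (2.00, adjusted p = 0.525 by limma), Ctsb (-0.83, adjusted p = 0.527) and Ms4a6c (1.45, adjusted p = 0.531) at the smallest p.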

How the data were processed

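RNA was sequenced from 20 libraries of sorted CD8+ T cells and 19 libraries labelled bulk tumour, ribosome-depleted and strand-specific per the labels' protocols. The authors deposited 1 table of TPM per set, by gene symbol. The tool kallisto 0.45 and the build GRCm38 are named per the submitters' processing notes; the annotation is not given in the sources used here. All sample columns were used (0 left out), and depth is unknown. Kallisto shares reads among similar transcripts, so paralogs are uncertain.

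TPM values were put on log2(TPM + 1), where changes of low genes are understated. A gene was tested where 4 or more libraries reached 1 TPM, which left 12942 and 13326 genes. Each set was fitted alone with limma 3.58.1 in R 4.3.3 (4 group means, empirical Bayes with trend), with Benjamini-Hochberg adjustment over all genes tested and a threshold of 0.05. Correlations with C1qa used group-centred values and 100000 permutations within groups (numpy 2.4.6). Both were tested on simulated data.

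The members and the marker lists were chosen with earlier results of these data known. Values per library or group were given for C1qa, C1qb, Lyz2, Csf1r, Adgre1, Cd68, Cd14, Tyrobp, Fcer1g, Apoe, Mrc1 and Il1b, for the members called in each comparison or the 3 of smallest p, and for the 5 members of highest and 3 of lowest correlation. Lgmn, Lst1 and Cst3 were described further after their values were seen. Promoters came from a RefSeq table and coordinates from GENCODE M21, an annotation of GRCm38. Alternatives changed the pseudocount, filter, scaling, weights, anchor gene and libraries included.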

Additional observations from a re-analysis of the deposited data

Results flagged for a closer look

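Among 104 groups of 4 or 5 libraries, 13 quantities in 8 groups, 12 had a library that stood far from the other libraries of its group. The rule flags about 1 in 20 groups of independent, normally distributed values. TPM values need not be normal and the quantities come from the same libraries, so that rate is no measure of chance here. In the CD8 set, library 7 of the CZA anti-PD-1 group was high in Csf1r, at 2.84 TPM with the next library at 1.52, and in Mrc1, at 2.01 TPM with the next at 0.681. Library 13 of the CZA+DAV132 isotype group was high in Fcer1g, at 1561 TPM with the next at 593. Library 19 (CZA+DAV132 anti-PD-1), rich in repeat entries, was low in the summed members, at 368 TPM with the next at 931.

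In the bulk-labelled libraries, T023 (CZA+DAV132 anti-PD-1) was high in C1qa, at 7.54 TPM with the next at 3.17, and in Mrc1, at 1.47 TPM with the next at 0.363. T021 of the same group was high in Cd68, at 14.9 TPM. T984 of the CZA anti-PD-1 group was high in Adgre1, at 1.80 TPM with the next at 0.0842, and T990 of that group in Cd14, at 8.01 TPM. T028 of the CZA+DAV132 isotype group was high in Cd14, at 5.26 TPM, T024 of that group in Mrc1, at 3.63 TPM, and T991 of the CZA isotype group in Tyrobp, at 134.5 TPM.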

How the results depend on the processing

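The count of members lower under anti-PD-1 in the CZA+DAV132 arm of the CD8 set, 11, kept within 1.5 times with only the groups compared (10), a pseudocount of 0.1 (11), a mean of at least 5 TPM (13), array weights (15) and without libraries 11, 16 and 19 (12). It was 7 with no filter (21.2% of members, 8.70% of all genes), 5 with median-ratio scaling (15.6% and 14.2%), 6 when rescaled without repeat entries (18.8% and 13.2%) and 2 without the repeat-rich libraries (6.25% and 5.20%), and ran from 4 to 19 when each library was left out. The cause was not tested. The count that varied with C1qa in the CD8 set, 25, was 17 to 29 in the other settings (17 with Csf1r as the anchor, 29 with group means not subtracted), 7 without libraries 11, 16 and 19, and 15 to 24 when each library was left out. In the bulk-labelled libraries it was 1, and 0 by Spearman's rho, with a pseudocount of 0.1, no filter, median-ratio scaling, rescaled values, Csf1r or Lyz2 as the anchor, without the repeat-rich libraries and without the 2 libraries farthest from the median of C1qa, with 0 to 2 when each library was left out. For anti-PD-1 in the CZA+DAV132 arm of that set the count of 0 was 1 with a mean of at least 5 TPM and 1 with array weights, and 0 to 1 when each library was left out. That range was 0 to 1 for anti-PD-1 in the CZA arm of that set and for CZA+DAV132 under anti-PD-1 in the CD8 set, and 0 to 0 for the other 6 comparisons. The correlation of Lst1 with C1qa in the bulk-labelled libraries turned to 0.0468 with a pseudocount of 0.1, to 0.0579 without the 2 farthest libraries and to 0.0280 without T027, and that of Ctsb to -0.0931 without the 2 farthest libraries, -0.0196 without T987 and -0.0289 without T989. With each library left out in turn they ran from -0.26 to 0.0280 for Lst1 and from -0.0289 to 0.286 for Ctsb. The interaction was not run with only the groups compared, since it uses all 4. No paired analysis was possible because the groups share no replicate numbers. TPM carries no counts, so the limit that depth sets on low members such as Cd163 is unknown.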
